A study of Mus musculus with 51 samples.

Results

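Described here are 10 mouse genes of metal binding and antioxidant defence, Mt1, Mt2, Gclc, Gclm, Nqo1, Hmox1, Txnrd1, Srxn1, Slc7a11 and Gsta4. They were listed by what they do, with no threshold on their values, but with earlier results of these data known. A gene was measured where a probe set carried exactly 1 gene symbol, and all 10 were measured among 19938 such genes, each by 1 probe set (Mt1 10574027, Mt2 10574023, Gclc 10587266, Gclm 10495763, Nqo1 10581538, Hmox1 10572897, Txnrd1 10365260, Srxn1 10477061, Slc7a11 10498024 and Gsta4 10587315). The samples were 51 arrays of mouse stromal lines, in 17 groups of 3, collected to compare lines that do or do not maintain hematopoietic stem and progenitor cells in culture.

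Of the 13 lines grown to confluence, 4 came from the aorta-gonad-mesonephros region (AGM) of (CBAxC57BL/10)F1 embryos at embryonic day 11. These are UG26.1B6, AM14-1C4 and AM30-3F4, labelled supportive, and UG26.3B5, labelled less-supportive. From fetal liver (FL) of C57BL/6 embryos at embryonic day 14.5 stem 2012 and AFT024, labelled supportive, as well as AFT011, BFC and BFC012, labelled non-supportive. BFC carries no clone number in its label and was kept apart from BFC012. From adult bone marrow (BM) came BMC9 (supportive) and BMC10 (less supportive), both of H2ts6 mice, and 14F1-1 (supportive) of BALB/c mice. OP9 (supportive) came from the fetal calvaria of (C57BL/6xC3H)F2-op/op mice. Cultures stood on gelatin at 33 °C, except all of 14F1-1 and replicates 1 and 2 of OP9, labelled 37 °C. A further 12 arrays came from stroma of AFT024 and BFC012 cultured for 4 days either alone or together with KLS cells, the c-Kit+Sca1+Lin- fraction of bone marrow in which hematopoietic stem and progenitor cells are enriched, and then purified by absence of the leukocyte antigen CD45. All lines but OP9 are labelled as clones, so a difference between 2 of them is one between individual clones. Separate cultures are not stated for the replicates, so the p-values reflect array-to-array spread, possibly of technical origin.

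Metallothioneins are small cysteine-rich proteins that bind zinc and copper. Their genes are induced by zinc through the metal-sensing factor Mtf1 acting at metal response elements, and also by glucocorticoids. Nrf2 (Nfe2l2) is the transcription factor that Keap1 holds back in unstressed cells and that oxidants and electrophiles release to act at antioxidant response elements. Its classical targets supply cystine (Slc7a11, the light chain of the cystine-glutamate exchanger) and make glutathione (Gclc and Gclm, the catalytic and modifier subunits of glutamate-cysteine ligase). Others reduce quinones (Nqo1), break down heme (Hmox1), recycle oxidised thioredoxin and peroxiredoxin (Txnrd1 and Srxn1) and conjugate lipid aldehydes (Gsta4).

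Promoters of Mt1 and Mt2, the metallothionein genes whose rise with KLS cells is described next, are printed to show their metal response cores. The start sites lie 6471 bases apart on the plus strand of chromosome 8 (RefSeq, GRCm38.p6, a build used for these sequences only). Capitals mark matches, on either strand, to the metal response core TGCACNC or TGCGCNC and, in Mt2, the antioxidant response core TGACNNNGC. Each run is the 250 bases before the start, 5′ to 3′.
Mt1, chr8:94178839-94179088, plus strand: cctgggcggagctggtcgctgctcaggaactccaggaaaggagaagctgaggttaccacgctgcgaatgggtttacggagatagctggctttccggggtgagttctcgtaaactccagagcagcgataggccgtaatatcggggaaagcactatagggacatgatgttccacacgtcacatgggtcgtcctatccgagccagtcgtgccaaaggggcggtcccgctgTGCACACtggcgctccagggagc
Mt2, chr8:94172368-94172617, plus strand: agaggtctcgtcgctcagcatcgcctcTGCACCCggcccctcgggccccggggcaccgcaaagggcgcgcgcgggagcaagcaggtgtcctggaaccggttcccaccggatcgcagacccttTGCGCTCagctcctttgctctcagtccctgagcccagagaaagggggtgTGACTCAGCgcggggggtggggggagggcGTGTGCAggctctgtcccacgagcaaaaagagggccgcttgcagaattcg
A search of these 250 bases with the 50 after the start found 3 metal response cores for Mt1, 1 before the start and 2 after it, and 4 for Mt2, 3 of them before the start. Of 32851 mouse promoters of this length 1.97% held at least 3 metal response cores and 0.517% at least 4. Gclm held 3, at one place overlapping its antioxidant response core, and Srxn1 held 1 (25.7% of all promoters had at least 1). The antioxidant response core occurred at least once in 12.4% of the promoters and, among the members, in Mt2, Gclm, Srxn1 and 1 of 3 promoters of Txnrd1. Neither core was found in the window of Nqo1 or Slc7a11. A match is only a run of letters. Promoters matched for 7 of the 10 members, and Gclc, Hmox1 and Gsta4 were without an entry.

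All values are deposited log2 signals, in which a difference of 1 is a 2-fold change. Their quantiles match only within 4 sets of 18, 6, 12 and 15 arrays, so levels are compared within a set, and the level of one probe set says nothing against that of another. Tests are limma's, and the Benjamini-Hochberg adjustment of each p ran over 19938 genes. A gene passed where the adjusted p was below 0.05. Among the sorted arrays 3 stood apart from their group by correlation over all genes (0.972 to 0.977, against at least 0.993 between the others). They were replicate 1 of AFT024 grown alone, of BFC012 grown alone and of AFT024 grown with KLS cells. All results on sorted stroma are therefore given also without these 3 arrays, an alternative chosen after the data were seen. Each of the 3 groups then holds 2 arrays. Leaving out the arrays that deviate most lowers the spread by itself, so smaller p-values without them are not read as stronger evidence. Stromal markers such as collagens were above the median gene for 7 to 9 of 10 genes in every group. Hematopoietic markers were above it, by group mean, for 0 of 16 in every group but AM14-1C4, where 1 was (Lyz2).

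Mt1, Mt2 and Gclc rose with KLS cells in both sorted lines. The other 7 members did not pass in either line. With 0.351% of all genes called in AFT024 and 0.883% in BFC012, 3 of 10 members passed in each line, all upward (0.296% and 0.612% of all genes rose). For these 3, every array with KLS cells stood above every array without, as for 8.07% of all genes in AFT024 and 7.80% in BFC012.

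Mt2 measured 8.59, 7.81 and 8.10 in AFT024 grown alone and 10.53, 11.34 and 11.09 with KLS cells. In BFC012 it measured 7.77, 6.31 and 6.20 alone and 10.79, 11.07 and 11.14 with KLS cells. The groups did not overlap in either line, and the line means, 8.16 and 6.76 when alone, were 10.99 and 11.00 with KLS cells. The difference was 2.82 (SE 0.375, adjusted p = 0.00973, 7.08-fold) in AFT024 and 4.24 (SE 0.375, adjusted p = 4.19e-04, 18.9-fold) in BFC012. Without the 3 arrays it was 3.26 (SE 0.143, adjusted p = 8.04e-07) and 4.75 (SE 0.130, adjusted p = 8.05e-09, 26.8-fold).

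Mt1 measured 9.49, 10.10 and 10.07 in AFT024 alone and 10.94, 11.41 and 11.38 with KLS cells. In BFC012 it measured 9.19, 8.72 and 8.52 alone and 10.83, 10.95 and 10.96 with KLS cells. The groups did not overlap in either line, and BFC012 again began lower. The rise was 1.36 (SE 0.204, adjusted p = 0.0201, 2.57-fold) in AFT024 and 2.10 (SE 0.204, adjusted p = 7.55e-04, 4.29-fold) in BFC012. Mt1 and Mt2 are close paralogs, and signal shared between their probes was not tested.

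Gclc, which carries out the first step of glutathione synthesis, measured 8.25, 7.65 and 7.44 in AFT024 alone and 9.80, 9.95 and 9.82 with KLS cells. In BFC012 it measured 8.52, 8.77 and 8.77 alone and 10.46, 10.48 and 10.19 with KLS cells. Here BFC012 had the higher signal in both conditions, the opposite order to Mt1 and Mt2 in cells grown alone. The rise was 2.08 (SE 0.178, adjusted p = 5.77e-04, 4.23-fold) in AFT024 and 1.69 (SE 0.178, adjusted p = 9.89e-04, 3.22-fold) in BFC012. Its partner subunit Gclm did not pass with all arrays, at 0.46 (adjusted p = 0.765) in AFT024 and 0.09 (adjusted p = 0.968) in BFC012.

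Single arrays decided some of these calls in AFT024. Mt1 no longer passed without replicate 3 grown alone (adjusted p = 0.0594) or replicate 2 (adjusted p = 0.0893) or 3 (adjusted p = 0.0654) grown with KLS cells. Mt2 no longer passed without replicate 2 (adjusted p = 0.0570) or 3 (adjusted p = 0.0581) grown alone, or replicate 2 grown with KLS cells (adjusted p = 0.0572). In a fit to the 6 AFT024 arrays alone Mt1 did not pass either (adjusted p = 0.206). Gclc passed whichever array was left out, and in BFC012 so did all 3 genes. Hmox1 passed in AFT024 without replicate 1 grown with KLS cells (1.36, adjusted p = 0.0148).

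**Figure D1:**
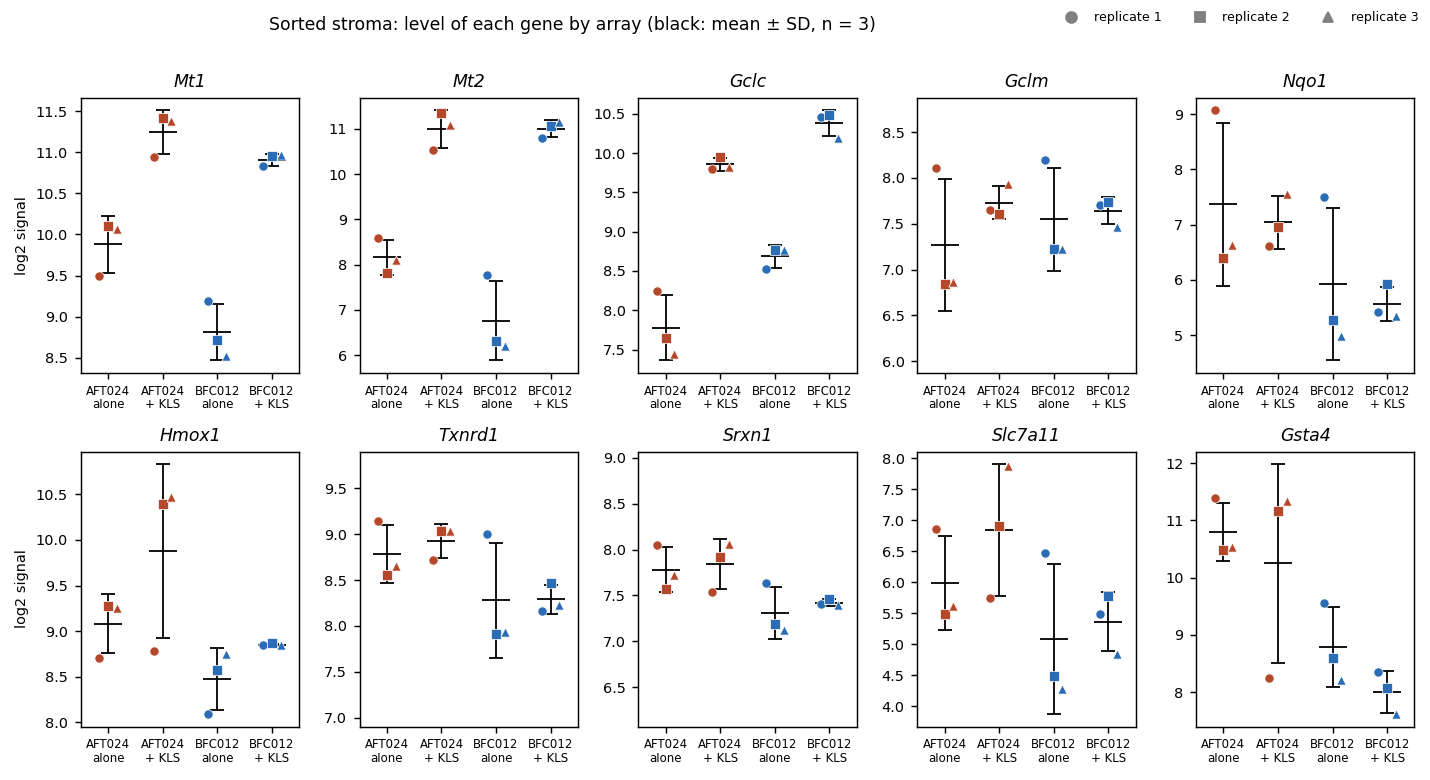
Log2 signal (y axis) of each member in every sorted array, for AFT024 (brown) and BFC012 (blue) grown alone or with KLS cells; symbols give the replicate number, the black bar and whiskers the mean ± SD (n = 3), and y axes differ between panels. Mt1, Mt2 and Gclc stand higher with KLS cells in every array of both lines, while replicate 1 of both lines grown alone is the highest array of its group for Nqo1, Slc7a11 and Gclm.

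Among the members that did not pass, several diverged in the 3 arrays that stood apart. Nqo1 measured 9.07, 6.39 and 6.64 in AFT024 alone and 6.61, 6.95 and 7.56 with KLS cells. In BFC012 it measured 7.50, 5.28 and 4.98 alone and 5.41, 5.92 and 5.35 with KLS cells. Replicate 1 grown alone thus lay 2.55 (AFT024) and 2.37 (BFC012) above the mean of its other replicates, and 99.8% of genes deviated less in each of these arrays. The same 2 arrays were also high for Slc7a11 (1.31 and 2.09 above), Gclm (1.25 and 0.97) and Gsta4 (0.88 and 1.16), and low for Hmox1 (0.56 and 0.57 below). In replicate 1 of AFT024 with KLS cells, Gsta4 was 8.25 against 11.16 and 11.34, and Hmox1 was 8.78 against 10.39 and 10.47.

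Without the 3 arrays more members passed, against more genes overall. In AFT024 7 of 10 passed, all higher with KLS cells (5.99% of all genes called, 3.45% higher). Beside Mt1 (1.31), Mt2 (3.26) and Gclc (2.34) these were Slc7a11 (1.84, SE 0.301, adjusted p = 0.00441), Hmox1 (1.17, SE 0.096, adjusted p = 5.72e-05), Gclm (0.92, SE 0.126, adjusted p = 0.00171) and Txnrd1 (0.43, SE 0.111, adjusted p = 0.0425). In BFC012 6 of 10 passed, all higher (10.4% of all genes called, 5.40% higher). Beside Mt1 (2.29), Mt2 (4.75) and Gclc (1.60) these were Slc7a11 (0.98, SE 0.275, adjusted p = 0.0431), Gclm (0.42, SE 0.115, adjusted p = 0.0417) and Txnrd1 (0.37, SE 0.101, adjusted p = 0.0410). The signals of Slc7a11 and of both ligase subunits were thus among those that rose in each line in this reduced set. The arrays left out include replicate 1 grown alone, which was high for Slc7a11 and Gclm in both lines. With all arrays neither passed by limma in AFT024 or BFC012 (Slc7a11 adjusted p = 0.773 and 0.943, Gclm adjusted p = 0.765 and 0.968). Nqo1 (0.74 and 0.43), Srxn1 (0.34 and 0.26) and Gsta4 (0.74 and -0.40) did not pass in AFT024 or BFC012.

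**Figure D2:**
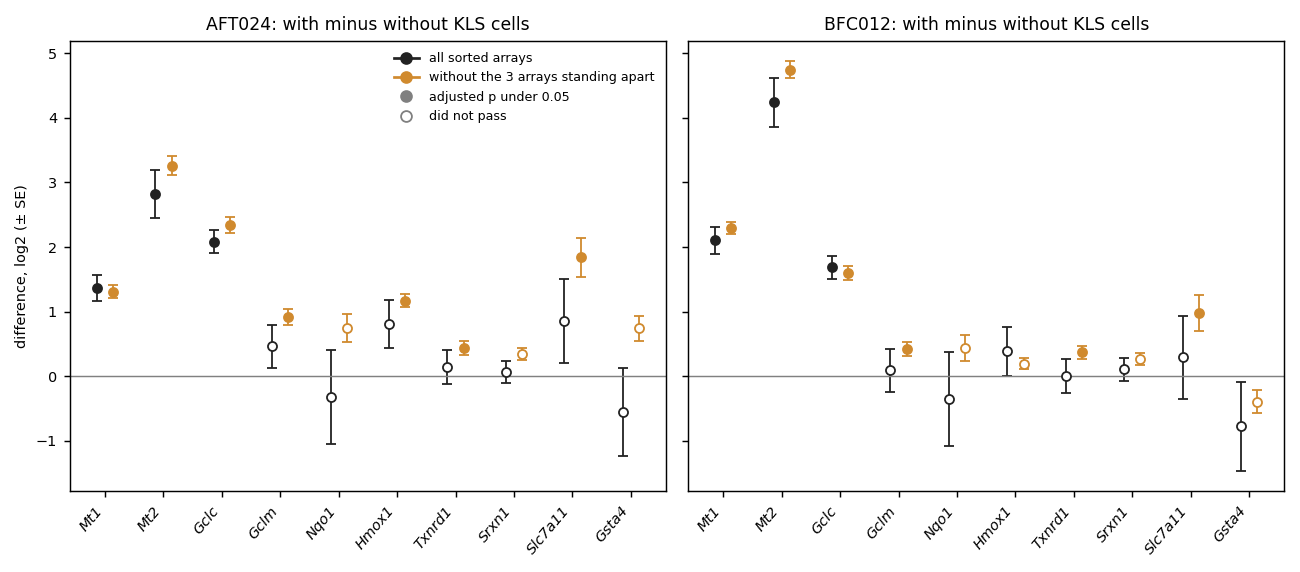
Difference in log2 signal with minus without KLS cells (y axis, ± SE) for each member in AFT024 (left) and BFC012 (right), from all 12 sorted arrays (black) or without the 3 arrays standing apart (orange); filled points passed the threshold. Mt2 is the highest point of both panels, at 2.82 and 4.24 with all arrays, and Mt1 and Gclc are the other filled black points.

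Whether the 2 lines responded differently was tested as the difference of their responses. With all arrays 0 of 10 members passed (0.0401% of all genes called by limma). An unadjusted p under 0.05 was found for 2 members, and for 1565 of all 19938 genes. For Mt2 the response of AFT024 was 1.42 lower on the log2 scale (-1.42, SE 0.530, adjusted p = 0.533) and for Mt1 0.74 lower (-0.74, SE 0.288, adjusted p = 0.554). With the 3 arrays left out, 5 members passed (3.80% of all genes called). The responses of Mt1 (-0.98, adjusted p = 0.00316) and Mt2 (-1.48, adjusted p = 0.00248) were then smaller in AFT024. Those of Gclc (0.74, adjusted p = 0.0311), Hmox1 (0.98, adjusted p = 0.00255) and Gsta4 (1.13, adjusted p = 0.0398) were larger in AFT024. In the arrays kept, Hmox1 stood in AFT024 at 9.28 and 9.25 alone and at 10.39 and 10.47 with KLS cells. In BFC012 it stood at 8.57 and 8.75 alone and at 8.85, 8.87 and 8.85 with KLS cells, where the response was 0.19 (adjusted p = 0.229). The AFT024 array with KLS cells that was left out measured 8.78. With all arrays the difference of the responses of Hmox1 was 0.42 (adjusted p = 0.913).

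Lists of the wider Nrf2 and zinc pathways gave no call with all arrays, where 0.351% of all genes were called in AFT024 and 0.883% in BFC012. At such shares a list of this size would mostly hold no call, so the absence of calls is read no further. Of 27 other measured Nrf2 targets 0 passed in AFT024 (median difference 0.17) and 0 in BFC012 (-0.01), against medians over all genes of 0.005 and -0.015, and 4 and 6 had an unadjusted p under 0.05. By limma 0 of 9 genes of Nrf2 control passed in either line (2 and 1 with an unadjusted p under 0.05), and 0 of 18 zinc-handling genes (1 and 1). Shares of all genes under that unadjusted level are not given for these responses, so the unadjusted counts are read no further. The zinc exporter Slc30a1, an Mtf1 target like the metallothioneins, was added after its values were seen. It measured 6.72, 6.52 and 6.74 in AFT024 alone and 6.76, 6.69 and 6.54 with KLS cells. The difference was 0.00 (adjusted p = 0.998) there and -0.04 (adjusted p = 0.964) in BFC012. The other metallothionein genes, Mt3 (-0.02 and 0.01) and Mt4 (0.04 and -0.08), did not pass either. Without the 3 arrays 6 of the 27 Nrf2 targets were higher and 0 lower in AFT024, and 4 were higher and 3 lower in BFC012. Of all genes 5.99% were then called in AFT024 (3.45% higher) and 10.4% in BFC012 (5.40% higher). Nfe2l2 itself was then lower with KLS cells in AFT024 (-0.39, adjusted p = 0.0345) and not called in BFC012 (-0.01). What part zinc or Nrf2 has in the rise of the members was not tested.

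A list of genes known to be induced by glucocorticoids was examined in the same way. Of its 10 genes 6 rose in AFT024 (median of the list 1.03) and 4 in BFC012 (median 0.83), and 0 fell. Of all genes 0.296% rose in AFT024 and 0.612% in BFC012. Fkbp5, a co-chaperone of the glucocorticoid receptor, measured 6.34, 5.81 and 6.15 in AFT024 alone and 9.11, 9.05 and 8.68 with KLS cells, and 6.71, 6.00 and 5.98 against 9.31, 9.56 and 9.19 in BFC012. Its rise was 2.85 (adjusted p = 3.18e-04) and 3.12 (adjusted p = 6.05e-05). Tsc22d3 rose by 0.97 in both lines, Errfi1 by 1.43 and 1.34, and Per1 by 1.03 and 0.73. In AFT024 Zbtb16 (1.95) and Klf9 (1.53) rose too. In the reduced set 7 of the 10 rose in each line, where 3.45% of all genes rose in AFT024 and 5.40% in BFC012. What part these genes' inducers have in the rise of the members was not tested.

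RNA of KLS cells left in the sort was checked through 16 hematopoietic markers. Their summed log2 signal was 71.36 to 71.97 in AFT024 alone and 71.83 to 77.85 with KLS cells, and 72.76 to 72.82 in BFC012 alone and 72.95 to 77.06 with KLS cells. By limma 0 of 16 passed in either line (2 and 2 with an unadjusted p under 0.05), where 0.351% and 0.883% of all genes were called. Ptprc, which encodes CD45, lay between 4.23 and 4.44 in all 12 arrays, below the lower quartile of genes at 4.63. S100a9 reached 6.34 in replicate 3 of AFT024 with KLS cells, and Lyz2 reached 5.53 in replicate 3 of BFC012 with KLS cells. The part of such RNA in the rise of the members was not tested.

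Between the sorted lines grown alone, AFT024 had more Mt1 (1.07, SE 0.204, adjusted p = 0.00945) and Mt2 (1.40, SE 0.375, adjusted p = 0.0459) and less Gclc (-0.91, SE 0.178, adjusted p = 0.0111) than BFC012. These 3 of 10 members passed with 7.32% of all genes called. Same-numbered arrays of these groups deviated together (correlations of 0.671, 0.517 and 0.466), although arrays of unlike number reached 0.501. With the replicate number as a block over all 12 arrays Mt2 no longer passed (adjusted p = 0.0602). With the block in the 6 arrays alone 9 members passed (15.8% of all genes called). Gsta4 was then higher in AFT024 by 2.01 (adjusted p = 2.16e-04), Nqo1 by 1.45 (adjusted p = 9.94e-04), Slc7a11 by 0.91 (adjusted p = 0.0164), Hmox1 by 0.60 (adjusted p = 0.00658), Txnrd1 by 0.50 (adjusted p = 0.0419) and Srxn1 by 0.46 (adjusted p = 0.0169). As many, 9, passed when the 3 arrays were left out (19.6% of all genes called). Mt2 lost its call in 5 of the 6 fits that left out 1 array (adjusted p from 0.0716 to 0.170), the exception being without replicate 1 of BFC012, and Gclc lost it without replicate 2 of AFT024 (adjusted p = 0.0506). Without replicate 1 of BFC012, Nqo1 (2.24, adjusted p = 0.0483), Txnrd1 (0.86, adjusted p = 0.0111) and Srxn1 (0.63, adjusted p = 0.0342) passed. In the 6 arrays without the block 1 member passed, Gsta4 (adjusted p = 0.0448), with 4.43% of all genes called. Centring arrays on their medians also took the call of Mt2 (adjusted p = 0.0517).

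With KLS cells 0 of 10 members passed between the lines (11.6% of all genes called by limma), and 6 had an unadjusted p under 0.05. The share of all genes under that unadjusted level is not given here. The level of Mt2 was 10.99 ± 0.415 (SD, n = 3) in AFT024 and 11.00 ± 0.185 (SD, n = 3) in BFC012, a difference of -0.01 (SE 0.375). Leaving out replicate 1 of AFT024 let Gsta4 (3.24, adjusted p = 4.47e-04), Hmox1 (1.58, adjusted p = 6.90e-04) and Srxn1 (0.57, adjusted p = 0.0499) pass. In a fit to the 6 arrays alone Nqo1 (1.48, adjusted p = 0.00858), Txnrd1 (0.64, adjusted p = 0.0154) and Gclc (-0.52, adjusted p = 0.0188) passed (13.8% of all genes called). Without the 3 arrays 8 members passed (26.9% of all genes called), Gsta4 by 3.24, Slc7a11 by 2.03, Nqo1 by 1.69 and Hmox1 by 1.58 toward AFT024, and Gclc by -0.49 toward BFC012. Mt2 (0.21, adjusted p = 0.270) and Gclm (0.13, adjusted p = 0.462) were the members that did not.

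In confluent cultures all 10 members differed among the 6 lines of the 18-array set (F test of limma, 55.4% of all genes called) and 9 of 10 among the 5 lines of the 15-array set (56.9% of all genes called). Gclm was the exception, at an adjusted p = 0.0725. In the 18-array set it also, among the members, spanned the narrowest range, from 11.44 in AFT024 to 11.85 in UG26.3B5. In a fit to the 18 arrays alone Mt1 (adjusted p = 0.135) and Gclm (adjusted p = 0.188) did not pass. Gclm lost its call there also without replicate 2 (adjusted p = 0.0910) or 3 (adjusted p = 0.126) of UG26.3B5. In the 15-array set it passed when fitted to those arrays alone (adjusted p = 0.00602) or without replicate 3 of 2012 (adjusted p = 0.0273).

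Nqo1 and Slc7a11 separated the AGM pair from the other 4 lines of the 18-array set. Nqo1 was highest in AFT024 (11.84, 12.09 and 12.21), followed by BMC10 at 11.04 ± 0.261, BFC012 at 10.56 ± 0.197 and BMC9 at 10.49 ± 0.244 (SD, n = 3 each), which overlapped one after the other. It was 7.70, 8.66 and 7.78 in UG26.1B6 and 6.08, 8.26 and 7.72 in UG26.3B5. Every array of the other lines lay above 10.3, so these 2 lines stood apart without overlap, and replicate 1 of UG26.3B5 was lowest. Slc7a11 followed the same division, at 5.78 ± 0.243 in UG26.1B6 and 6.10 ± 0.393 in UG26.3B5 (SD, n = 3 each), and at 9.89 ± 0.176 in AFT024, 9.38 ± 0.203 in BFC012, 9.11 ± 0.732 in BMC10 and 9.06 ± 1.215 in BMC9 (SD, n = 3 each). In BMC9 it ranged from 8.07 to 10.42. The other AGM lines, AM14-1C4 and AM30-3F4, lie in the 15-array set, so their levels are not set against these. Within that set they had Nqo1 at 11.49 and 11.48, next to 11.77 in 2012 and 11.70 in AFT011, and Slc7a11 at 9.15, 8.97 and 8.88 in the first and 8.68, 8.41 and 8.49 in the second. There 14F1-1 was lowest for both, at 10.65 for Nqo1 and 6.53 for Slc7a11, and AFT011 highest for Slc7a11 at 10.32.

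Gsta4, a glutathione transferase for lipid aldehydes such as hydroxynonenal, spread over 2.65 in the 18-array set and 4.22 in the 15-array set. In the latter its order was AM14-1C4 (12.13, 12.13 and 12.06), 14F1-1 (11.27, 11.38 and 11.35), AFT011 (10.75 in each array), 2012 (9.12, 9.71 and 9.86) and AM30-3F4 (7.95, 7.79 and 7.92). No neighbours in this order overlapped, and the ends were both supportive AGM lines. In the 18-array set AFT024 led (11.30, 11.57 and 11.40) ahead of UG26.3B5 (10.86 ± 0.525, SD, n = 3) and UG26.1B6 (10.29 ± 0.318, SD, n = 3). BMC9 (9.42), BMC10 (8.79) and BFC012 (8.77) followed and overlapped one after the other.

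The metallothioneins had narrow ranges of line means in the 18-array set. Mt1 spanned 0.57 from 11.84 in AFT024 to 12.41 in UG26.3B5, and every line overlapped the next in order. Mt2 spanned 0.70 from 12.05 in AFT024 to 12.74 in UG26.3B5, again with each line overlapping the next. Lines further apart in the order did not all overlap. For Mt2 the lowest array of UG26.3B5 (12.60) lay above the highest of UG26.1B6 (12.52) and of AFT024 (12.42). In the 15-array set Mt2 was 12.72 ± 0.064 in AFT011 and 12.64 ± 0.093 in 2012, both FL lines, then 11.41 ± 0.049 in AM30-3F4, 10.84 ± 0.074 in 14F1-1 and 10.72 ± 0.131 in AM14-1C4 (SD, n = 3 each). The FL lines thus stood above the AGM and BM lines for Mt2, the lowest FL array at 12.54 and the highest other array at 11.46. Mt1 followed another order there, 2012 (12.02), 14F1-1 (11.53), AFT011 (11.48), AM14-1C4 (11.24) and AM30-3F4 (10.85), in which only 14F1-1 and AFT011 overlapped.

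Of the other members, Txnrd1 was highest in UG26.3B5 (11.64) and UG26.1B6 (11.34) in the 18-array set, and in AM30-3F4 (11.67) in the 15-array set, all AGM lines. The fourth AGM line, AM14-1C4, was the lowest of its set at 10.46. Srxn1, which repairs over-oxidised peroxiredoxins, was likewise highest in UG26.3B5 (11.31) and AM30-3F4 (10.85), and lowest in BFC012 (9.66) and 14F1-1 (10.04). Hmox1 was lowest in the non-supportive lines BFC012 (10.92) and AFT011 (9.77) of the 2 sets. In the 18-array set it was highest in UG26.3B5 (11.94), labelled less-supportive, and BMC9 (11.93), labelled supportive. Gclc was lowest in the BM lines BMC9 (10.73) and 14F1-1 (10.61).

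**Figure D3:**
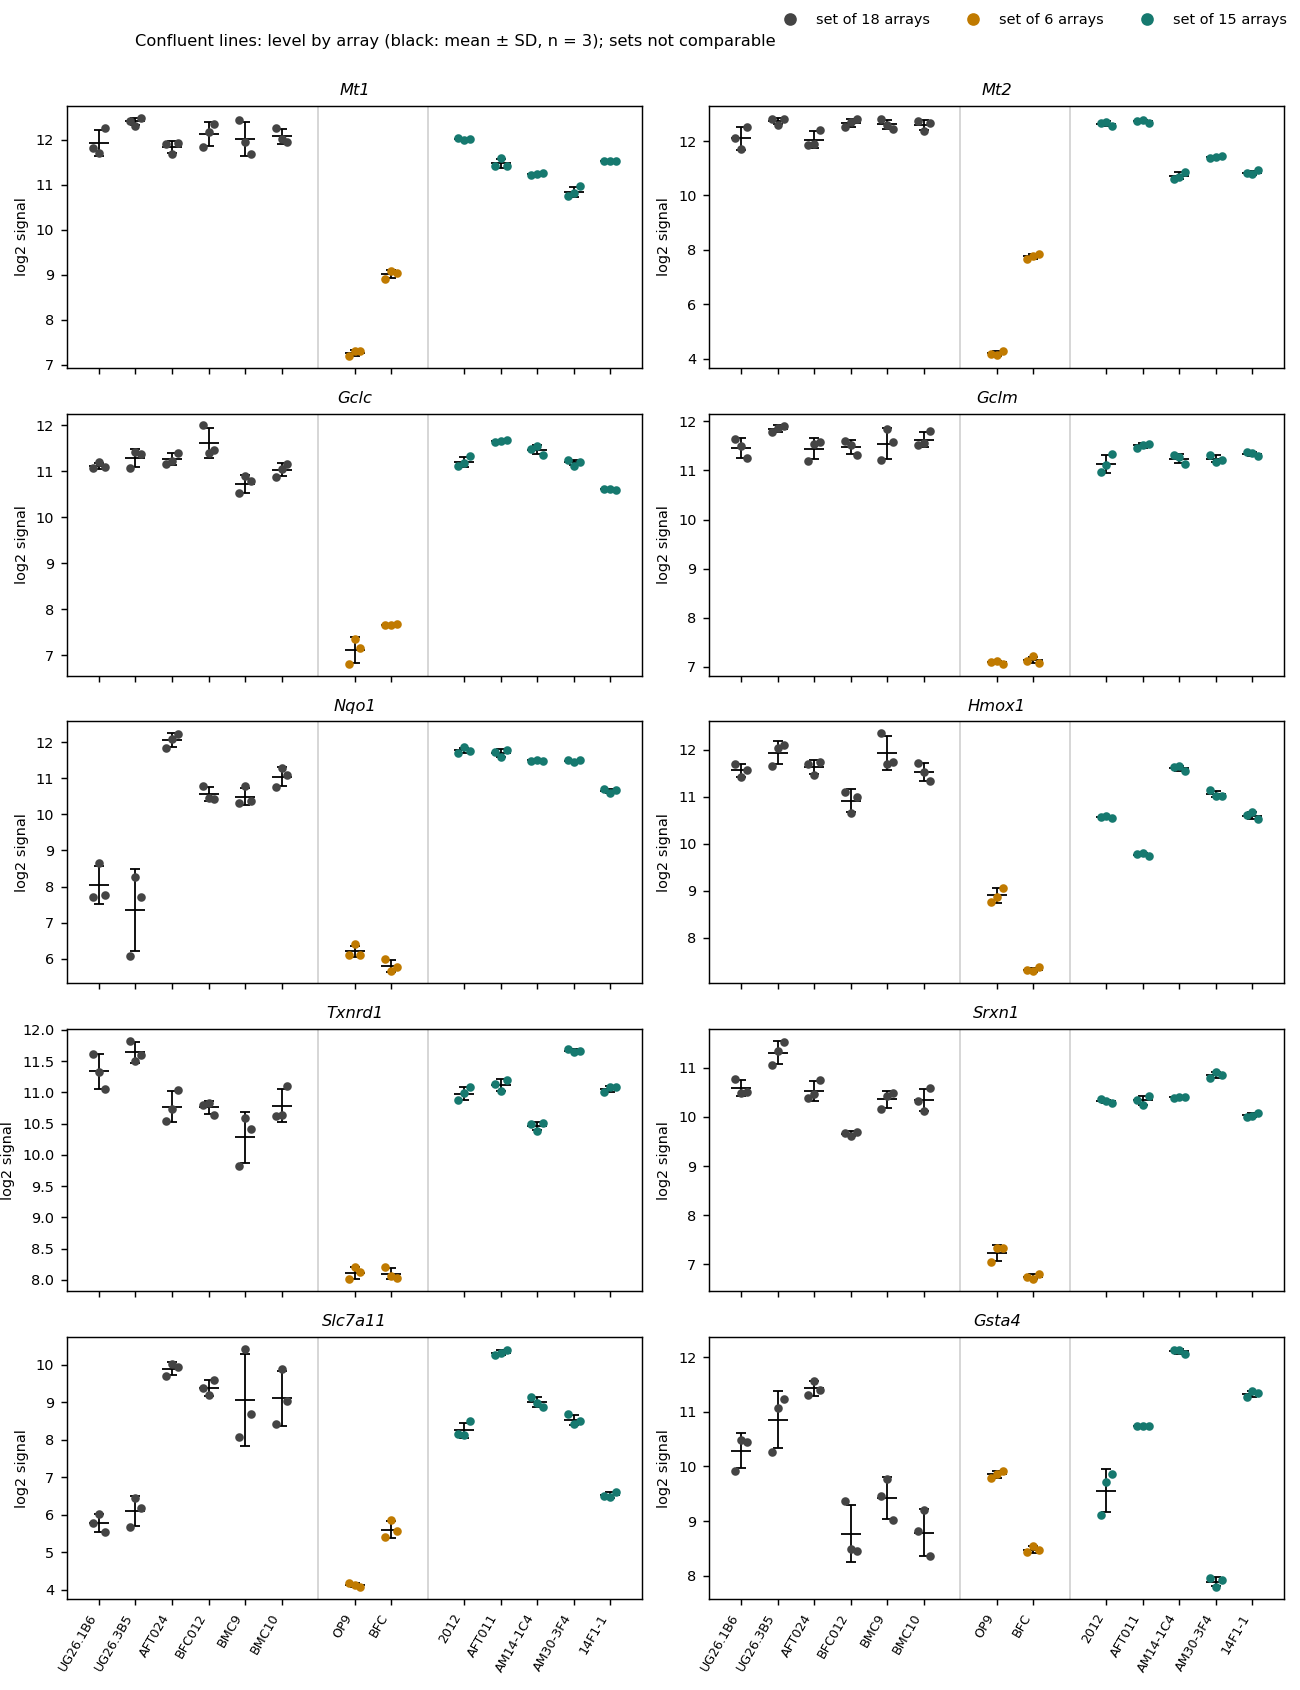
Log2 signal (y axis) of each member in the 39 confluent arrays by line (x axis), coloured by normalization set; black bars and whiskers are the mean ± SD (n = 3), y axes differ between panels, and the grey lines part the sets, between which levels are not comparable. Nqo1 and Slc7a11 fall to 7.36 and 5.78 in the UG26 lines, Mt2 falls to 4.19 in OP9, and Gsta4 reaches from 7.89 in AM30-3F4 to 12.11 in AM14-1C4.

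Next, each supportive line was set against the less or non-supportive line of its tissue and normalization set. Between the AGM lines UG26.1B6 and UG26.3B5, 4 of 10 members passed and all were lower in the supportive line (8.56% of all genes called, 4.22% lower). Srxn1 measured 10.78, 10.48 and 10.50 in UG26.1B6 and 11.06, 11.35 and 11.53 in UG26.3B5, without overlap, a difference of -0.73 (SE 0.110, adjusted p = 1.42e-05). Mt2 differed by -0.64 (SE 0.141, adjusted p = 0.00220), Mt1 by -0.48 (SE 0.132, adjusted p = 0.0166) and Gclm by -0.39 (SE 0.118, adjusted p = 0.0332). Of 27 other Nrf2 targets 9 were lower and 1 higher in UG26.1B6, with a list median of -0.12 against 0.034 over all genes. Gsta3 (-0.88) and Osgin1 (-0.65) were among the lower, and Ptgr1 (0.97) was the higher one. The metal sensor Mtf1 was lower by 0.44 (-0.44, adjusted p = 0.00141).

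In a fit to the 18 arrays of the set alone (4.15% of all genes called), Srxn1 passed and Mt2 (adjusted p = 0.0650), Mt1 (adjusted p = 0.165) and Gclm (adjusted p = 0.189) did not. The same-numbered arrays of this pair deviated together. With the replicate number as a block in those 18 arrays, 2 members passed, Srxn1 (adjusted p = 0.00272) and Mt2 (adjusted p = 0.0356), with 4.63% of all genes called. In the 6 arrays of the pair with the block (11.1% of all genes called), Srxn1 (adjusted p = 0.00850), Mt2 (adjusted p = 0.00837), Mt1 (adjusted p = 0.0114) and Gclm (adjusted p = 0.0442) all passed, and so did Gsta4 (-0.57, adjusted p = 0.00577). Mt2 lost its call without replicate 2 of UG26.1B6 (-0.43, adjusted p = 0.0585). Mt1 lost it without replicate 1 (adjusted p = 0.0661) or 2 (adjusted p = 0.149) of UG26.1B6 or replicate 3 of UG26.3B5 (adjusted p = 0.0768). Gclm lost it without replicate 2 (adjusted p = 0.0749) or 3 (adjusted p = 0.212) of UG26.1B6 or replicate 2 (adjusted p = 0.0840) or 3 (adjusted p = 0.116) of UG26.3B5. Without replicate 2 of UG26.3B5 Nqo1 passed, higher in UG26.1B6 by 1.14 (adjusted p = 0.00416). Without replicate 1 of UG26.3B5 Gsta4 (-0.87, adjusted p = 0.0112) and Hmox1 (-0.52, adjusted p = 0.0144) passed, and Hmox1 did so without replicate 1 of UG26.1B6 (-0.44, adjusted p = 0.0440) or with arrays centred on their medians (-0.42, adjusted p = 0.0201).

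Between the FL lines AFT024 and BFC012, 6 of 10 members passed, 4 higher and 2 lower in the supportive line (28.5% of all genes called, 15.6% higher and 12.9% lower). Gsta4 was 11.30, 11.57 and 11.40 in AFT024 and 9.37, 8.49 and 8.45 in BFC012, a difference of 2.65 (SE 0.223, adjusted p = 9.95e-12, 6.29-fold). Nqo1 was 11.84, 12.09 and 12.21 against 10.78, 10.46 and 10.43 (1.49, SE 0.280, adjusted p = 6.63e-05, 2.81-fold). Srxn1 (0.87, SE 0.110, adjusted p = 7.79e-08) and Hmox1 (0.71, SE 0.129, adjusted p = 3.91e-05) were higher too, and none of these 4 overlapped between the lines (33.0% of all genes did not). Of the 27 other Nrf2 targets 11 were higher in AFT024 and 0 lower (list median 0.19 against -0.015 over all genes), with Blvrb (1.65), the heme transporter Slc48a1 (1.29), Cbr3 (1.17) and Ephx1 (1.08) the furthest apart. Nfe2l2 itself was higher by 0.30 (adjusted p = 0.00187).

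In the same pair, Mt2 was lower in AFT024 (11.84, 11.88 and 12.42 against 12.50, 12.71 and 12.80, -0.62, SE 0.141, adjusted p = 6.50e-04), the opposite order to the sorted cells grown alone. Levels of the confluent and the sorted arrays come from different sets and were not tested against each other. Gclc was lower by 0.35 (-0.35, SE 0.123, adjusted p = 0.0292) with overlap between the lines. It lost this call in the fit to the set alone (adjusted p = 0.102) and without replicate 1 (adjusted p = 0.125) or 2 (adjusted p = 0.0796) of AFT024 or replicate 1 of BFC012 (-0.16, adjusted p = 0.382). Mt1 passed without replicate 1 of BFC012 (-0.43, adjusted p = 0.0190) or with arrays centred on their medians (-0.37, adjusted p = 0.0235), and Slc7a11 in the 6 arrays alone (0.50, adjusted p = 0.0272).

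Between the BM lines BMC9 and BMC10, 2 of 10 members passed (15.5% of all genes called), Hmox1 higher (0.40, SE 0.129, adjusted p = 0.0296) and Txnrd1 lower (-0.52, SE 0.144, adjusted p = 0.0107) in the supportive line. Hmox1 measured 12.35, 11.70 and 11.75 in BMC9 and 11.72, 11.53 and 11.33 in BMC10, with overlap. Neither gene passed in a fit to the set alone (adjusted p = 0.178 and 0.114) or with the replicate block there (adjusted p = 0.143 and 0.134), although same-numbered arrays of this pair deviated together. With the block in the 6 arrays (10.6% of all genes called), Gsta4 (0.63, adjusted p = 0.00320) and Nqo1 (-0.55, adjusted p = 0.00961) passed in their place. Both calls were also lost without replicate 1 of BMC9 (0.19 and -0.29, adjusted p = 0.368 and 0.187) or replicate 3 of BMC10 (0.30 and -0.36, adjusted p = 0.197 and 0.135), and that of Hmox1 without replicate 2 of BMC10 (adjusted p = 0.0688). Of the 27 other Nrf2 targets 1 was higher and 4 were lower in BMC9. Slc7a11 passed without replicate 2 of BMC9 (-0.73, adjusted p = 0.0399) but had the other sign without replicate 1 of BMC9 (0.45, adjusted p = 0.422), and Gsta4 without replicate 3 of BMC9 (0.83, adjusted p = 0.0170) or replicate 2 of BMC10 (0.83, adjusted p = 0.0161), after quantile normalization (adjusted p = 0.0419) or with dim genes left out (adjusted p = 0.0442).

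OP9 against BFC gave the widest metallothionein difference of the 7 confluent pairs compared, though the lines differ in tissue, strain and, for 2 of 3 OP9 arrays, temperature. Mt2 measured 4.16, 4.13 and 4.29 in OP9 and 7.66, 7.77 and 7.84 in BFC, a difference of -3.56 (SE 0.141, 11.8-fold). The OP9 level lay near the lower quartile over all genes of that set, 4.07, and no detection call was used here. Mt1 measured 7.20, 7.31 and 7.30 against 8.91, 9.08 and 9.05, a difference of -1.75 (SE 0.132). Slc7a11 (4.19, 4.13 and 4.08 against 5.40, 5.87 and 5.56, -1.48, SE 0.320) and Gclc (-0.55, SE 0.123) were lower in OP9 as well. Hmox1 (1.57, SE 0.129), Gsta4 (1.38, SE 0.223) and Srxn1 (0.50, SE 0.110) were higher. In all 7 of 10 members passed (34.4% of all genes called), and Nqo1 (0.40) passed in a fit to the 6 arrays alone (adjusted p = 0.0160). Of the other Nrf2 targets 14 of 27 were higher and 2 lower, Ephx1 (2.48) and Gsta3 (1.54) the furthest apart, and Nfe2l2 was higher by 0.66 (adjusted p = 8.32e-09). Replicate 3 of OP9, labelled 33 °C, had Mt2 at 4.29 and Hmox1 at 9.06, within 0.3 of the replicates labelled 37 °C.

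For the second FL pair, 2012 against AFT011, 6 of 10 members passed (27.6% of all genes called). Slc7a11 was 8.15, 8.13 and 8.49 in 2012 and 10.26, 10.31 and 10.39 in AFT011, a difference of -2.06 (SE 0.320). Gsta4 (-1.19, SE 0.223), Gclc (-0.45, SE 0.123) and Gclm (-0.37, SE 0.118) were lower in the supportive line too, so both ligase subunits and the cystine carrier were higher in the non-supportive one. Gclm lost its call without replicate 1 of 2012 (-0.28, adjusted p = 0.141) or replicate 3 of AFT011 (adjusted p = 0.0620). Hmox1 (10.57, 10.59 and 10.55 against 9.78, 9.80 and 9.74, 0.79, SE 0.129) and Mt1 (0.54, SE 0.132) were higher in 2012. Of the other Nrf2 targets 2 were higher and 11 lower, with Aox1 (-1.13), Osgin1 (-1.05) and Abcc4 (-1.03) the lowest, and Nfe2l2 was lower by 0.55 (-0.55, adjusted p = 5.53e-07). The first FL pair had 11 higher and 0 lower, so pairs of 1 tissue and strain gave opposite counts on this list.

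Members differed between supportive lines as well. Between the supportive AGM lines AM14-1C4 and AM30-3F4, 6 of 10 passed (31.6% of all genes called). Gsta4 was higher in AM14-1C4 by 4.22 (SE 0.223, 18.6-fold), Hmox1 by 0.55 (SE 0.129) and Mt1 by 0.39 (SE 0.132). Txnrd1 was lower (10.49, 10.38 and 10.51 against 11.69, 11.65 and 11.67, -1.21, SE 0.144), as were Mt2 (-0.69, SE 0.141) and Srxn1 (-0.45, SE 0.110). Mt1 and Mt2 thus passed in opposite directions here. Of the 27 other Nrf2 targets 5 were higher and 11 lower in AM14-1C4. Mt1 lost its call without replicate 2 (adjusted p = 0.0556) or 3 (adjusted p = 0.0582) of AM14-1C4 or replicate 1 (adjusted p = 0.0897) or 2 (adjusted p = 0.0630) of AM30-3F4. Gclc (0.27) and Slc7a11 (0.48) passed when fitted to the set alone (adjusted p = 0.00200 and 6.64e-04). AM14-1C4 is also the line with Lyz2 signal, at 9.36, whose part in these differences was not tested.

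Between 14F1-1 (BM, 37 °C) and 2012 (FL, 33 °C), where tissue, strain and temperature cannot be told apart, 7 of 10 members passed (36.6% of all genes called). Mt2 (-1.80, SE 0.141), Slc7a11 (-1.72, SE 0.320), Nqo1 (-1.12, SE 0.280), Gclc (-0.59, SE 0.123), Mt1 (-0.49, SE 0.132) and Srxn1 (-0.29, SE 0.110) were lower in 14F1-1. Gsta4 was higher (1.77, SE 0.223), as were 16 of the 27 other Nrf2 targets, while 4 of these 27 were lower. The call of Srxn1 was lost whichever of the 6 arrays was left out (adjusted p from 0.0507 to 0.104) and with each array centred on its median (-0.24, adjusted p = 0.103).

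**Figure D4:**
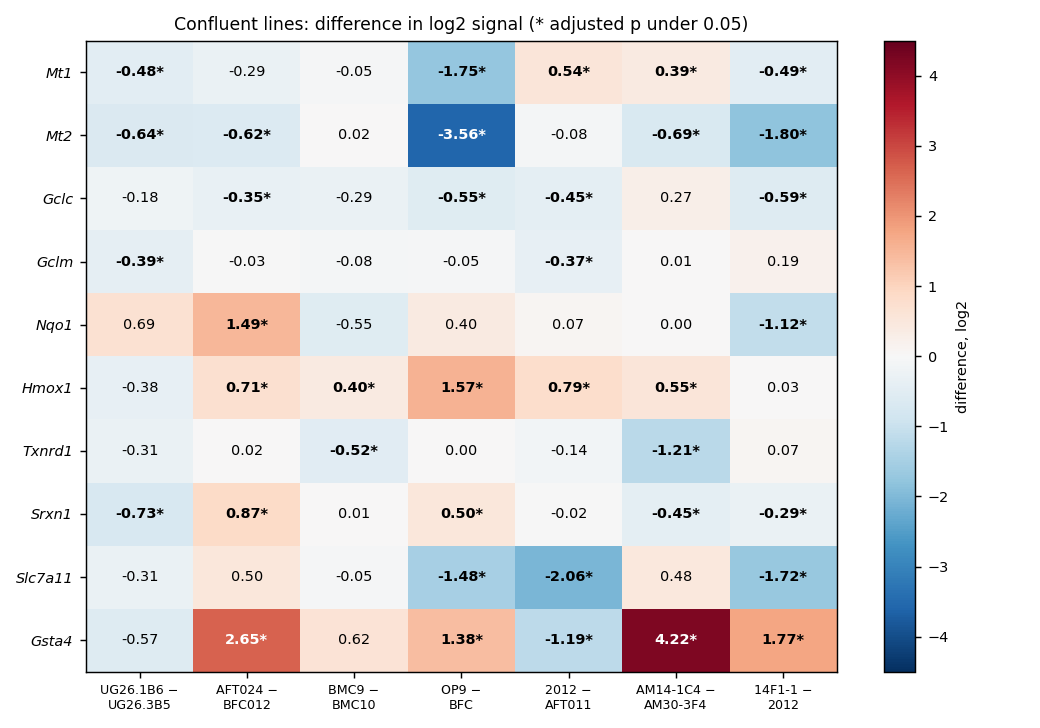
Difference in log2 signal (colour and printed value) of each member (rows) for 7 pairs of confluent lines (columns, first line minus second); stars mark an adjusted p under 0.05. The lowest value is Mt2 in OP9 minus BFC (-3.56) and the highest Gsta4 in AM14-1C4 minus AM30-3F4 (4.22). Hmox1 carries a star with a positive value in 5 of the 7 columns, among them AM14-1C4 minus AM30-3F4, both supportive lines.

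A gene that passed in one pair and not in another is not thereby shown to differ between them. The difference between pairs was therefore tested within the 18-array set. That set holds a single such pair per tissue, so FL, AGM and BM name pairs of clones here. The FL difference exceeded the AGM difference for Gsta4 (by 3.23, SE 0.315, adjusted p = 5.71e-10), Srxn1 (by 1.60, SE 0.155, adjusted p = 5.09e-10) and Hmox1 (by 1.09, SE 0.183, adjusted p = 1.74e-05), which makes 3 of 10 members (24.0% of all genes called). The supportive line's difference was 2.65, 0.87 and 0.71 in FL for these genes and -0.57, -0.73 and -0.38 in AGM, where that of Srxn1 passed and the other 2 did not. Between FL and BM 4 members differed (25.5% of all genes called), and between AGM and BM 5 did (12.6% of all genes called). With the replicate number as a block in the 18 arrays, FL against BM kept 3 (20.2% of all genes called) and lost Mt2 (adjusted p = 0.0616). AGM against BM, both paired by number, kept Srxn1 (adjusted p = 0.0165) and Hmox1 (adjusted p = 0.0477) and lost Gsta4 (adjusted p = 0.0962), Mt2 (adjusted p = 0.103) and Nqo1 (adjusted p = 0.135), with 8.27% of all genes called.

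Support across lines was tested on the means of 12 lines, allowing for tissue and normalization set, with OP9 left out as the only line of its tissue. No gene passed (0 of 19938 by limma, 950 with an unadjusted p under 0.05), and 0 of 10 members did. Gclm (-0.23, SE 0.074, p = 0.0147, adjusted p = 0.895, n = 12 lines) and Gclc (-0.30, SE 0.097, p = 0.0161, adjusted p = 0.895, n = 12 lines), both lower in supportive lines, were the 2 members with an unadjusted p under 0.05. Mt2 differed by -0.57 (SE 0.366) and Hmox1 by 0.41 (SE 0.227).

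How far the members vary together was described over the 17 group means, each centred on its set. No p is given, since groups of a set share lines and normalization. Mt1 and Mt2 were each other's closest gene among all 19938, with a Pearson r of 0.919. Nqo1 and Slc7a11 followed at 0.83, then Mt2 and Gclc at 0.69, Txnrd1 and Srxn1 at 0.65, and Hmox1 and Srxn1 at 0.59. Gclc and Gclm, subunits of 1 enzyme, reached 0.53, and 0.12 over the 13 confluent groups. Over these 13 groups Mt2 and Hmox1 ran opposite at -0.76. The members thus did not vary as a single block: Nqo1 with Txnrd1 was at -0.41 and with Gclm at -0.42.

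The genes most like each member by the same measure were mostly not members. Gclc was closest to Ctla2a (0.893), Fkbp5 (0.886) and Orm3 (0.853). The group means include the sorted groups, in which Gclc and Fkbp5 both rose with KLS cells, so their likeness is not a result separate from that rise. After each other, Mt1 was closest to Crxos (0.851) and Gas2l3 (0.837), and Mt2 to Crxos (0.856) and Synpr (0.853). Slc7a11 was closest to Pla2g7 (0.888), Cd34 (0.882) and Hddc2 (0.877), and Nqo1 to Mlkl (0.908), Etv4 (0.904) and Prcp (0.899). Hmox1 was closest to Gpc4 (0.900), Car13 (0.887) and Rnf144a (0.877), and Txnrd1 to Eid3 (0.934), Plekhb2 (0.884) and Rabgef1 (0.863). For Srxn1 these were Tmem37 (0.901), Mef2d (0.885) and E030011O05Rik (0.882), for Gclm Vmn2r90 (0.857), Gm16287 (0.828) and Etfbkmt (0.814), and for Gsta4 Lamtor4 (0.864), BC065397 (0.862) and Snapin (0.848).

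**Figure D5:**
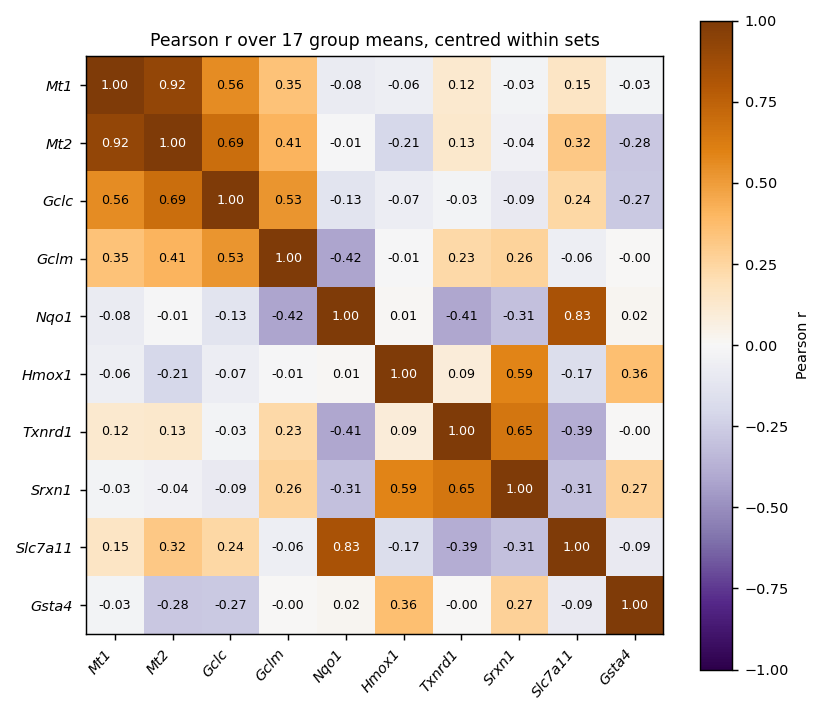
Pearson r between members (rows and columns) over the 17 group means centred within their normalization sets. Mt1 with Mt2 (0.92) and Nqo1 with Slc7a11 (0.83) are the darkest pairs, while Nqo1 with Gclm (-0.42) is the lowest value.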

How the data were processed

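Per the labels' protocols, Trizol-extracted total RNA (100 ng) was biotin-labelled for Affymetrix gene arrays. The authors deposited log2 signals per probe set. The submitters' processing notes name Partek and RMA, and versions and settings are not given in the sources used here. Quantiles match only within 4 sets of 18, 6, 12 and 15 arrays. Of 35556 probe sets 21789 had 1 gene symbol in the platform annotation, 1621 several and 12146 none. Per gene the probe set with the highest mean over the 51 arrays was used, which left 19938 genes, and no filter on low signal was applied.

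A mean per group was fitted with limma 3.58.1 in R 4.3.3, in 1 fit to the 39 confluent and 1 to the 12 sorted arrays. A standard error thus comes from the spread shared over a fit, although groups differ in spread. For Nqo1 the SD ran from 0.022 in AM14-1C4 to 1.136 in UG26.3B5, while an SE of 0.280 served every confluent pair. Fits to the arrays of 1 set use the spread of that set only. Contrasts were tested with moderated two-sided p-values. With 3 arrays per group, and fewer in the sorted groups that lost an array in the reduced set, their number limits the precision. The scripts were tested on simulated data. Plots come from Python 3.11.15 with matplotlib 3.10.9.

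The members, gene lists and tests were chosen with earlier results of these data known. All members are named, with up to 4 passing genes of a list by size of difference and the 3 genes of highest correlation to each member. Values of Lyz2, Ptprc, S100a9, Slc30a1, Mtf1 and Nfe2l2 were added after they were seen.

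Replicate numbers were taken to pair the arrays of 2 groups where the deviations from the group means of same-numbered arrays correlated above 0.1 in all 3 cases. Correlations were 0.535, 0.327 and 0.468 between UG26.1B6 and UG26.3B5, 0.323, 0.116 and 0.435 between BMC9 and BMC10, and 0.671, 0.517 and 0.466 between the lines sorted after growth alone. In the same order, the highest correlation between arrays of unlike number was 0.103, 0.194 and 0.501. The same-numbered values 0.116 and 0.466 lay below it, so the pairing is less clear for these latter comparisons. The remaining 8 comparisons missed this mark. The labels do not say what a replicate number marks.

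Alternatives were: centring arrays on their medians, quantile normalization again within a set, averaging probe sets, leaving out dim genes, a prior with trend, the arrays of 1 set or 1 pair only, a replicate block, leaving out each array and, added later, leaving out the 3 sorted arrays standing apart.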

Additional observations from a re-analysis of the deposited data

Results flagged for a closer look

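In 12 cases the supportive line's difference from its partner was itself different between clone pairs of the 18-array set, by limma's test of that difference. Each case is a member and a comparison of the FL, AGM or BM pair with another. There were 3 between FL and AGM, 4 between FL and BM and 5 between AGM and BM. The set holds a single such pair per tissue, so tissue and clone cannot be told apart, and a part of tissue was not tested. For Gsta4, Srxn1 and Hmox1, the members flagged between FL and AGM, the difference was 2.65, 0.87 and 0.71 in this FL pair. In the second FL pair, of another set, it was -1.19, -0.02 and 0.79.

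The FL difference exceeded that of AGM for Gsta4 by 3.23, for Srxn1 by 1.60 and for Hmox1 by 1.09. It exceeded that of BM for Nqo1 by 2.04 (adjusted p = 1.31e-04), for Gsta4 by 2.03 (adjusted p = 4.84e-06) and for Srxn1 by 0.86 (adjusted p = 4.83e-05), and for Mt2 the FL difference minus that of BM was -0.65 (adjusted p = 0.0137). The AGM difference against that of BM was 1.24 for Nqo1 (adjusted p = 0.0331), -0.66 for Mt2 (adjusted p = 0.0220), -0.78 for Hmox1 (adjusted p = 0.00278), -0.74 for Srxn1 (adjusted p = 8.70e-04) and -1.20 for Gsta4 (adjusted p = 0.00807).

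In a fit to the 18 arrays alone, the FL against BM result of Mt2 (adjusted p = 0.102) and the AGM against BM results of Mt2 (adjusted p = 0.167), Nqo1 (adjusted p = 0.235), Hmox1 (adjusted p = 0.0628) and Gsta4 (adjusted p = 0.0985) did not pass. With a trend in a robust prior Nqo1 did not pass there either (adjusted p = 0.0548). Some results for Nqo1 and Mt2 were lost without single arrays. Between AGM and BM, Nqo1 no longer passed without replicate 2 of UG26.1B6 (0.93, adjusted p = 0.150), replicate 1 of UG26.3B5 (0.60, adjusted p = 0.139), replicate 1 (1.15, adjusted p = 0.0721) or 3 (1.18, adjusted p = 0.0706) of BMC9, or replicate 2 (1.12, adjusted p = 0.0888) or 3 (1.21, adjusted p = 0.0604) of BMC10. Mt2 no longer passed there without replicate 2 of UG26.1B6 (-0.45, adjusted p = 0.126), replicate 1 (-0.62, adjusted p = 0.0516) or 3 (-0.63, adjusted p = 0.0529) of UG26.3B5, replicate 1 of BMC9 (-0.57, adjusted p = 0.0715) or replicate 2 of BMC10 (-0.55, adjusted p = 0.0858). Between FL and BM, Mt2 no longer passed without replicate 1 of AFT024 (-0.54, adjusted p = 0.0535) or replicate 2 of BMC10 (-0.54, adjusted p = 0.0558). Other members passed when an array was left out. Between FL and AGM, Nqo1 passed without replicate 2 of UG26.1B6 (1.11, adjusted p = 0.0402) or replicate 1 of UG26.3B5 (1.44, adjusted p = 4.42e-05). Gclm passed there without replicate 1 of AFT024 (0.48, adjusted p = 0.0365). Between FL and BM, Txnrd1 passed in 5 such fits, with differences from 0.60 to 0.69. Without replicate 2 of BMC9 Slc7a11 was at 1.23 (adjusted p = 0.00443), against 0.55 with all arrays, and without replicate 1 of BMC9 Hmox1 was at 0.52 (adjusted p = 0.0151). Between AGM and BM, Mt1 passed without replicate 3 of UG26.1B6 (-0.60, adjusted p = 0.0237) or of BMC9 (-0.60, adjusted p = 0.0238), and Gclm without replicate 1 of BMC9 (-0.47, adjusted p = 0.0424).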

How the results depend on the processing

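No member's difference that passed with all arrays changed sign under an alternative, and none that passed under an alternative had the opposite sign to that with all arrays. Differences that passed only with arrays left out did change sign when others were left out. Slc7a11 in the BM pair ran from -0.73 to 0.45. In the response of BFC012, Txnrd1 (0.37) and Slc7a11 (0.98), called without the 3 arrays, were as low as -0.18 and -0.11, and for the difference of the responses Gsta4 (1.13) was as low as -0.32. Of the fits to fewer arrays, the AGM pair gave 828 genes and 1 member past the threshold in the set alone, 748 and 1 in its 6 arrays, and 924 and 2 with the replicate block in the set. In its 6 arrays with the block it gave 2217 genes, with Srxn1, Mt2, Mt1, Gclm and Gsta4 passing. The BM pair gave 1900 genes in the set, 1296 in 6 arrays and 2051 with the block in the set, and 0 members in these 3 fits. In its 6 arrays with the block it gave 2115 genes, with Gsta4 and Nqo1 passing. The AGM difference against the BM difference gave 1496 genes and 1 member in the set, and 1649 and 2 with the block. The lines sorted after growth alone gave 884 genes and 1 member in 6 arrays, 3152 and 9 there with the block, and 3901 and 9 without the 3 arrays. With KLS cells they gave 2758 genes and 3 members in 6 arrays, and 5354 genes and 8 members without the 3 arrays. In those 6 arrays with the block, Gclc (adjusted p = 0.0294), Nqo1 (adjusted p = 0.0171) and Txnrd1 (adjusted p = 0.0162) passed. The share of all genes called in that fit is not given here. The response of AFT024 gave 11 genes in 6 arrays and 0 genes and 0 members there with the block (Mt1, Mt2 and Gclc at adjusted p = 0.131, 0.257 and 0.212), a pairing the arrays do not bear out, and 1195 and 7 without the 3 arrays. That of BFC012 gave 58 genes in 6 arrays with the block, and 2069 genes and 6 members without the 3 arrays. The difference of the responses gave 5 genes with a trend in the prior, 0 with the block, and 758 genes and 5 members without the 3 arrays. The cause was not tested.

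Leaving out 1 array at a time, the counts ran from 1122 to 1964 genes and 1 to 6 members in the AGM pair. In the BM pair they ran from 2384 to 2936 genes and 0 to 3 members. For AGM against BM they ran from 2159 to 2643 genes and 3 to 6 members. Between the lines sorted alone they ran from 749 to 2241 genes and 1 to 6 members. With KLS cells they ran from 1381 to 2732 genes and 0 to 3 members. They ran from 22 to 149 genes and 1 to 4 members in the response of AFT024, 70 to 373 genes in that of BFC012 and 0 to 46 genes for their difference. The fewest genes were called without replicate 2 of UG26.1B6 in the AGM pair, replicate 3 of AFT024 between the lines sorted alone, replicate 2 of AFT024 with KLS cells in its response, replicate 3 of BFC012 grown alone in its response, and replicate 1 of BFC012 with KLS cells between the lines with KLS cells. The replicate block changed no other call of a member in the 3 paired comparisons than those given beside the results. In pairs whose numbers do not pair, it let Nqo1 pass in the OP9 pair (adjusted p = 0.0315) and Gclc (adjusted p = 0.00450) and Slc7a11 (adjusted p = 7.95e-04) in the AM pair, and took the call of Gclc in the first FL pair (adjusted p = 0.115). Between the lines with KLS cells Hmox1 passed with it (1.03, adjusted p = 0.0368). Array signals near the lower quartile, as for Mt2 and Slc7a11 in OP9, bound how low a level can be read.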

Other observations

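Genes near the members were examined for the same comparisons. Steap3, an iron reductase of the endosome, was higher in AFT024 than BFC012 by 2.32 (adjusted p = 1.20e-12) and in 2012 than AFT011 by 1.79 (adjusted p = 9.02e-10), the FL pairs whose Nrf2 target counts ran opposite. The stress-induced Nupr1 was higher in AFT024 by 2.21 (adjusted p = 3.23e-14) and in OP9 than BFC by 2.53 (adjusted p = 8.22e-16). The zinc importer Slc39a8 was higher in UG26.1B6 by 1.05 (adjusted p = 1.83e-08) and in AFT024 by 0.97 (adjusted p = 1.22e-08), and lower in 2012 by 0.90 (-0.90, adjusted p = 7.69e-08). The small heat shock protein Hspb1 rose with KLS cells in AFT024 by 1.51 (adjusted p = 0.0198) and the lipoprotein receptor Vldlr by 1.53 (adjusted p = 0.00633), while in BFC012 they differed by 1.01 (adjusted p = 0.0812) and 0.90 (adjusted p = 0.0595). The difference between the lines' responses did not pass for Hspb1 (0.50, adjusted p = 0.779) or Vldlr (0.63, adjusted p = 0.607). Each of these genes was picked from its list by the size of its difference.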
